A study of Mus musculus with 5 samples.

Results

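Tenocyte-like cells of the mouse temporomandibular joint (TMJ) disc are described here as the disc cells that carried transcripts of Tnmd together with Kera, or of either with Coch. A cell was taken when the mitochondrial genes made up at most 30% of its unique molecular identifiers (UMIs, each a count of 1 captured RNA molecule), when it held at least 1000 UMIs, and when Tnmd, Kera and Coch summed to at least 5 UMIs with at least 2 of the 3 present. Cells with cartilage or bone transcripts were left out by limits on Chad (under 2000 UMIs per 1000000 of the cell's UMIs), Ibsp (fewer than 3 UMIs) and Col2a1 (fewer than 3 UMIs), and so were cells with any UMI of Pi16, Cdh5 or Tyrobp. These cells were thus selected on their measured values, and the 9 genes of the rule are described and not tested. In all, 957 of 51948 barcodes met the rule.

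Single-cell RNA sequencing with 3′ chemistry was performed on TMJ discs, the fibrocartilage pads between the jaw condyle and the skull, in 5 libraries with 1 library per condition. All libraries are labelled wild-type C57BL/6. The normal discs were from mice aged 3 days (3 d), 3 weeks (3 w), 16 weeks (16 w) and 78 weeks (78 w). The injured discs were from mice aged 7 weeks, and the study's methods describe needle punctures in the anterior band at 5 weeks with collection 2 weeks later. Those methods describe the injury in male Myh11-CreER mice with a tdTomato reporter, whereas the label of the injured library gives wild type. They also describe it in female C57BL/6 mice of another experiment, and the sex of the mice of the injured library was not stated. The 3 d library pooled male and female pups, the other normal libraries were given as males, and the number of animals per library was not stated. Discs were cut out under a stereomicroscope and digested with Pronase and then Collagenase P.

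The libraries held 125130270 UMIs at 3 d, 125427849 at 3 w, 88998394 at 16 w, 105309834 at 78 w and 31585993 in the injured discs. The tenocyte-like cells numbered 155 at 3 d, 451 at 3 w, 93 at 16 w, 133 at 78 w and 125 in the injured library, and together held 1919381, 6644031, 854441, 1389998 and 642645 UMIs in that order. Their median depth per cell was 9977, 13717, 7673, 9217 and 4282 UMIs. The 3 w cells were therefore both the most numerous and the deepest, and the injured cells the shallowest. No barcode of a tenocyte-like cell was shared between libraries, whereas 275 barcodes of the whole series were shared over the 10 library pairs.

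The injured library stood apart from its neighbours in the sex-linked genes. Xist, the RNA that silences an X chromosome in female cells, was at 717 UMIs per 1000000 (CPM) in the injured tenocyte-like cells and at 663 CPM in the other stromal cells of that library, whereas the tenocyte-like cells of 3 w and 16 w held 1 UMI each and those of 78 w held 0. Ddx3y, a Y-linked helicase gene, held 0 UMIs in the injured tenocyte-like cells but was at 156 CPM in the 3 w cells, 98.3 CPM in the 16 w cells and 86.3 CPM in the 78 w cells. The 3 d library, pooled from both sexes, held both genes, at 832 and 28.1 CPM. The levels of the injured library differ from those of the libraries given as males. The study's methods do not state the sex of the mice of the injured library. Injury, sex, an age between those of the 3 w and 16 w libraries and the lower depth cannot be told apart in any comparison with the injured library.

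Tenocytes are the fibroblasts of tendon and ligament. They lie in rows between bundles of collagen I and build, with small leucine-rich proteoglycans and thrombospondins, a tissue that carries tension. Their lineage is marked by the transcription factors Scx and Mkx, which act on collagen and proteoglycan genes, and in more mature cells by Tnmd. Tnmd encodes tenomodulin, a membrane glycoprotein of tendon and ligament cells with a chondromodulin-like domain outside the cell. Kera encodes keratocan, a keratan sulfate proteoglycan known from the cornea that is also made in tendon, and Coch encodes cochlin, a secreted protein with von Willebrand factor A domains that is known from the inner ear. In the annotation of the mouse genome used here (GRCm38, GENCODE M21) the protein-coding gene Tnmd lies at chrX:133850980-133865577 on the plus strand, Kera at chr10:97606879-97613692 on the plus strand and Coch at chr12:51593341-51605771 on the plus strand.

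Stromal cells served as the reference. They were the retained cells in which Col1a1, Col1a2, Col3a1 and Dcn made up at least 0.5% of the UMIs and which held no UMI of a set of genes of other cell types, among them Cdh5, Pecam1, Tyrobp, Ptprc and Rgs5, and the tenocyte-like cells were counted in with them. The limit on Chad held for the tenocyte-like cells and not for the other stromal cells, some of which were Chad-high (at least 2000 CPM of Chad in the cell). These made up 0 of the 9460 other stromal cells of the 3 d library, 1480 of the 6803 in the 3 w library, 2516 of the 6958 in the 16 w library, 1965 of the 7585 in the 78 w library and 1476 of the 6119 in the injured library. A difference between libraries in the other stromal cells therefore includes this change of makeup. A level in CPM is the gene's UMI sum in a class of cells, divided by all UMIs of that class and multiplied by 1000000, and the interval in parentheses is an exact 95% Poisson interval. A UMI stands for 1 captured 3′ end, so levels do not grow with the length of a gene. Shares carry exact Clopper-Pearson intervals, and ratios the exact interval of 2 Poisson counts. These intervals are for counting error only. Since each condition has 1 library there is no replicate error, so that no test was made, no p-value is given, and every difference is a difference between libraries.

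The share of tenocyte-like cells among the stromal cells was 1.61% (1.37 to 1.88) in the 3 d library and 6.22% (5.67 to 6.80) in the 3 w library. In the 16 w library it was 1.32% (1.07 to 1.61), in the 78 w library 1.72% (1.45 to 2.04) and in the injured library 2.00% (1.67 to 2.38). The rule asks for a number of UMIs, so it is met more easily in deep cells. When cells were reduced by random draws to 3000 UMIs and both the rule and the stromal definition were applied to the thinned counts, the shares were 0.282% (0.187 to 0.407), 0.951% (0.746 to 1.19), 0.517% (0.366 to 0.709), 0.895% (0.701 to 1.13) and 1.13% (0.831 to 1.49) in the same order. Thinning also takes away UMIs that keep a cell out of the stromal class, so the class then held other cells. Among the cells that were stromal by the deposited counts and deep enough, the shares after thinning were 0.317%, 1.03%, 0.536%, 0.940% and 1.16%. The order of the libraries thus changed with depth: the 3 w library was highest before thinning and the injured library after it, while the intervals of the 3 w, 78 w and injured libraries overlapped after thinning and the 3 d library lay lowest. Thinning left out 34.0% of the injured stromal cells as too shallow, and between 1.90% and 8.03% in the normal libraries.

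**Figure D1:**
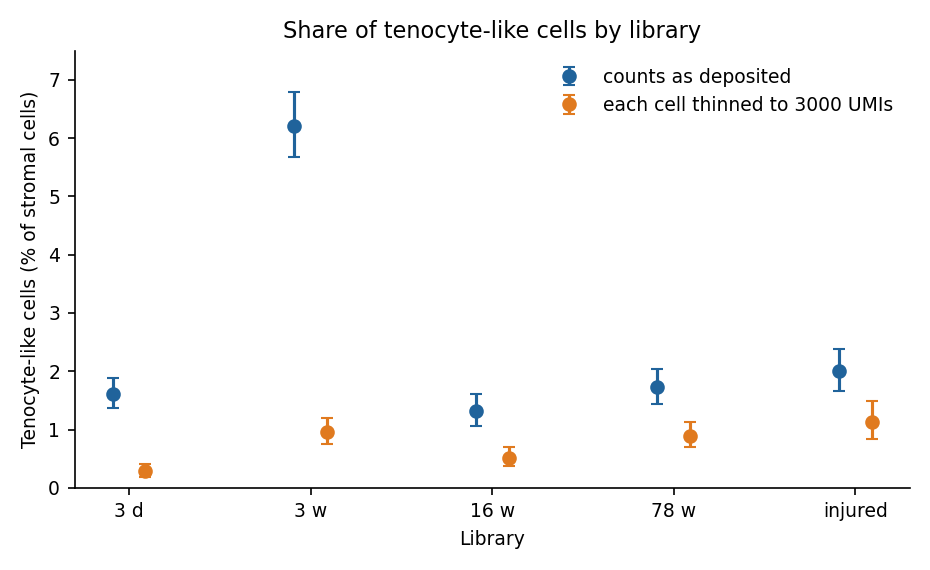
Share of stromal cells that met the tenocyte-like rule in each of the 5 libraries, in percent, with all UMIs and after each cell was thinned to 3000 UMIs, with the stromal class also taken from the thinned counts; bars on the points are exact 95% binomial intervals for counting error only. The 3 w point is highest at 6.22% with all UMIs and lies within the interval of the injured library after thinning.

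The edge of the rule was populated in every library. Over all libraries, 144 cells that met the rest of the rule held 4 UMIs of the markers and were left out, and 117 cells held 5 UMIs and were taken in. In the 3 w library 47 cells lay just outside and 40 just inside, and in the injured library 44 and 34. Cells with 7 or more marker UMIs numbered 107, 367, 76 and 115 in the normal libraries from the youngest to the oldest, and 75 of the 125 in the injured library, whose cells were the shallowest. The level of Scx in the cells with 4 and with 5 marker UMIs was 163 and 87.7 CPM at 3 d, 211 and 180 CPM at 3 w, 333 and 762 CPM at 16 w, 277 and 431 CPM at 78 w, and 436 and 370 CPM in the injured library, with no common direction. The limits on Chad, Ibsp and Col2a1 kept out 7 cells with enough marker UMIs out of 199 at 3 d, 123 out of 595 at 3 w, 25 out of 131 at 16 w, 19 out of 169 at 78 w and 6 out of 135 in the injured discs.

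The 3 markers did not make up the same cell in every library. At 3 d 94.8% (90.1 to 97.8) of the tenocyte-like cells carried Tnmd and Kera without Coch, and at 3 w 92.7% (89.9 to 94.9) did. At 16 w only 41.9% (31.8 to 52.6) did so, at 78 w 63.9% (55.1 to 72.1) and in the injured library 82.4% (74.6 to 88.6). Cells with Kera and Coch and no UMI of Tnmd were 1 of 155 at 3 d and 8 of 451 at 3 w, but 30 of the 93 cells at 16 w, 29 of the 133 cells at 78 w and 10 of the 125 injured cells. The name of Tnmd and Kera therefore describes nearly all of the cells at 3 d and 3 w and a smaller part of them at 16 w and 78 w, where Coch was the most abundant of the 3 in 34.4% (24.9 to 45.0) and 19.5% (13.2 to 27.3) of the cells.

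**Figure D2:**
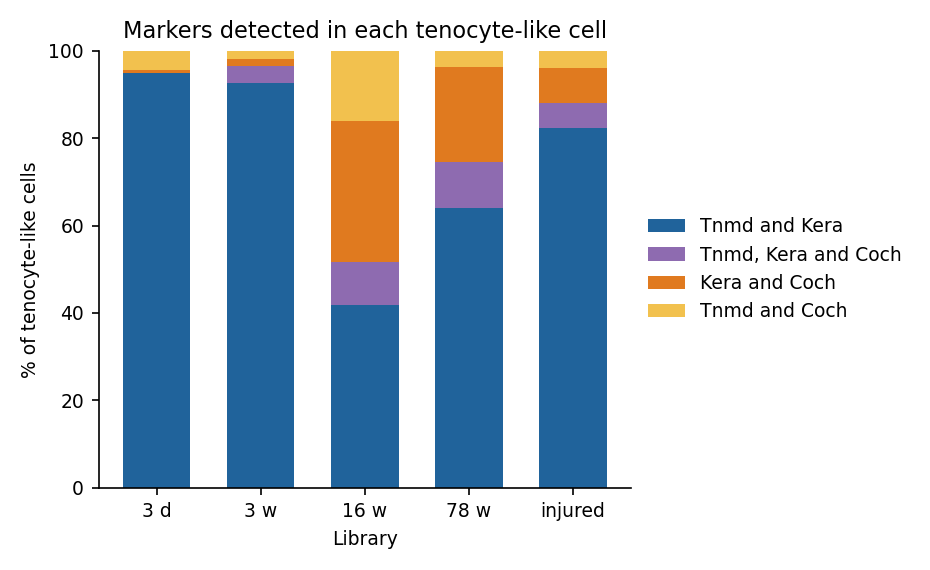
Percent of tenocyte-like cells in each library that carried Tnmd and Kera only, Kera and Coch only, Tnmd and Coch only, or all 3 markers. Tnmd and Kera alone account for 94.8% of the cells at 3 d and for 41.9% at 16 w.

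Tnmd was at 558 CPM (526 to 593) at 3 d, 557 CPM (540 to 576) at 3 w, 240 CPM (208 to 275) at 16 w, 488 CPM (452 to 527) at 78 w and 1091 CPM (1012 to 1175) in the injured tenocyte-like cells. The other stromal cells held 67.3, 84.6, 6.72, 13.5 and 59.4 CPM of Tnmd in that order. The 3 d and 3 w levels of the tenocyte-like cells had overlapping intervals, and the 16 w library was lowest and the injured library highest. The rule shapes this order, since 5 marker UMIs are a higher level in a shallow cell. Cells with 5 marker UMIs held 1144 CPM of the 3 markers in the injured library and 354 CPM at 3 w. Over all stromal cells Tnmd was highest at 3 w, at 116 CPM against 85.6 CPM after injury. The other stromal cells were lower at 16 w and 78 w than at 3 d, 3 w and after injury.

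Kera was at 282 CPM (259 to 307) at 3 d, 294 CPM (281 to 307) at 3 w, 955 CPM (891 to 1023) at 16 w, 1071 CPM (1017 to 1126) at 78 w and 594 CPM (536 to 657) in the injured library. Other stromal cells held 24.4, 25.1, 37.2, 24.0 and 48.0 CPM of Kera in that order. Coch was at 11.5 CPM (7.18 to 17.4) at 3 d, 35.1 CPM at 3 w, 1980 CPM at 16 w, 1268 CPM at 78 w and 173 CPM in the injured library, and the other stromal cells held 0.655, 2.98, 71.5, 41.7 and 2.80 CPM. In the tenocyte-like cells, which the rule chose on these genes, Kera and Coch were higher at 16 w and 78 w than in the younger normal libraries. That is the reverse of the order of Tnmd between 3 w and 16 w. In the other stromal cells Coch had the same order, but Kera at 78 w was no higher than at 3 d and 3 w. At 3 d 45.5% of the 22 Coch UMIs came from a single cell.

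**Figure D3:**
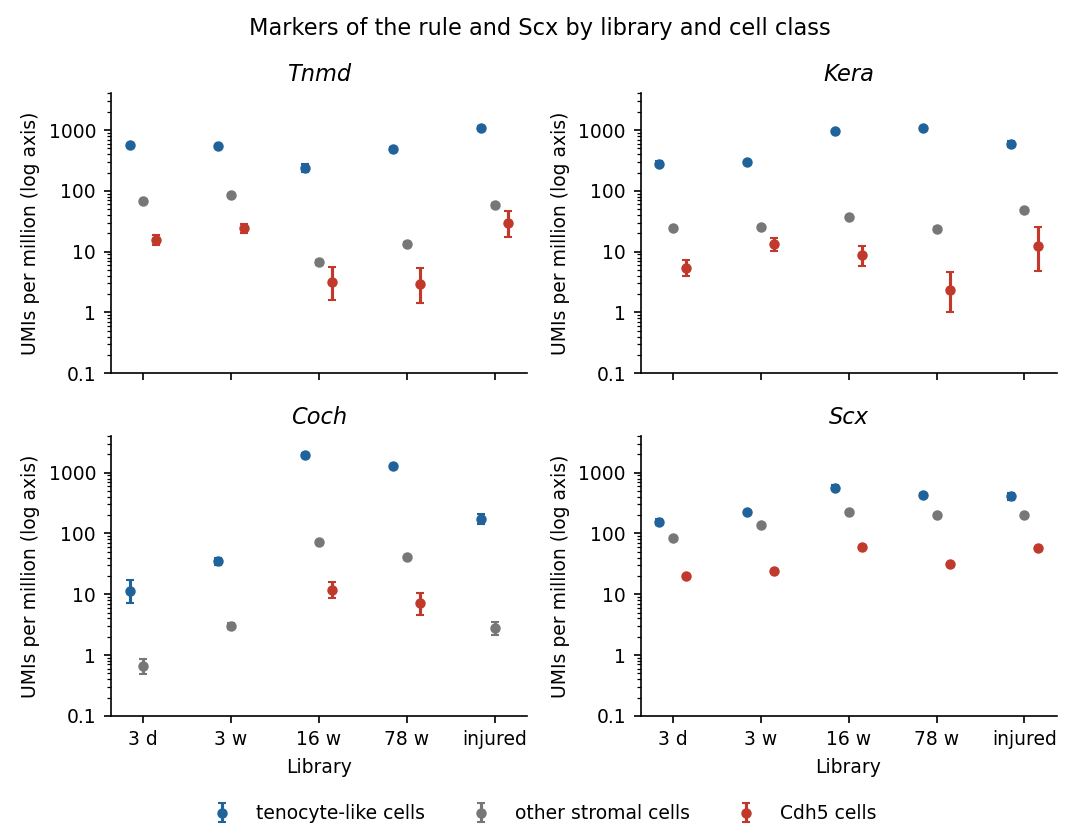
Level of Tnmd, Kera, Coch and Scx in CPM on a log axis, in tenocyte-like cells, other stromal cells and Cdh5 cells of the 5 libraries. Bars are exact 95% Poisson intervals for counting error only, and for Scx they are drawn only for the tenocyte-like cells. Coch held 0 UMIs in the Cdh5 cells at 3 d, at 3 w and after injury, so no point is drawn there, and Coch in the tenocyte-like cells runs from 11.5 CPM at 3 d to 1980 CPM at 16 w.

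Free RNA in the droplets can leave UMIs in cells that do not express a gene, so the level in endothelial cells, taken as cells with at least 2 UMIs of Cdh5, is given beside these values. Those cells held 2.96 to 29.6 CPM of Tnmd, 2.37 to 13.3 CPM of Kera and at most 11.9 CPM of Coch. In the thinned stromal cells a UMI of Kera was found in 10.4% (8.52 to 12.5) of the cells with a UMI of Tnmd and 5.99% (5.47 to 6.53) of those without one at 3 d, in 18.1% against 6.10% at 3 w, 19.1% against 6.15% at 16 w, 30.6% against 3.82% at 78 w and 27.5% against 8.80% after injury. Among stromal cells Kera was thus found more often in those with Tnmd than in those without it in each library, least so at 3 d. Among the thinned endothelial cells of 3 w, Kera was in 4 of 17 with Tnmd (23.5%, 6.81 to 49.9) and 3 of 570 without it (0.526%, 0.109 to 1.53). At 3 d it was in 1 of 22 and 2 of 625, and the remaining libraries held at most 2 endothelial cells with Tnmd.

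Because the rule used all 3 markers, each was also read in cells chosen by the other 2 alone, with at least 3 UMIs of that pair, both of its genes present and the rest of the rule kept, and compared with stromal cells that held a UMI of neither. Tnmd was higher in the cells chosen by Kera and Coch, with a ratio of 4.89 (4.16 to 5.73) in the 3 w library, 5.57 (3.48 to 8.50) in the 16 w library, 10.8 (8.50 to 13.5) in the 78 w library and 11.2 (8.66 to 14.2) in the injured one. Kera was 9.06 to 31.8 times as high in the cells chosen by Tnmd and Coch in these 4 libraries. Coch in the cells chosen by Tnmd and Kera had a ratio of 2.09 (1.56 to 2.77) in the 3 w library, 6.78 (5.94 to 7.72) in the 16 w library, 15.1 (13.9 to 16.3) in the 78 w library and 14.9 (9.75 to 22.7) in the injured one. No difference was detectable at this depth in the 3 d library. There the 228 cells chosen by Tnmd and Kera held 0 UMIs of Coch, which allows up to 1.35 CPM against 0.729 CPM in the cells with neither. The 3 cells chosen by Kera and Coch held 0 UMIs of Tnmd (up to 99.7 against 84.2 CPM), and the 8 cells chosen by Tnmd and Coch held 0 UMIs of Kera (up to 36.4 against 32.2 CPM).

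The label of a tenocyte was checked on tendon genes outside the rule, and cartilage genes outside it are given further below. Scx, at chr15:76457452-76459458 on the plus strand, was at 156 CPM (139 to 175) at 3 d, 222 CPM (211 to 234) at 3 w, 567 CPM (517 to 619) at 16 w, 432 CPM (398 to 468) at 78 w and 406 CPM (358 to 459) in the injured tenocyte-like cells. The other stromal cells held 83.2, 140, 228, 203 and 201 CPM, so that Scx was higher in the tenocyte-like cells of every library, by ratios between 1.59 and 2.48. The endothelial cells held 20.3 to 59.0 CPM. After thinning to 3000 UMIs, a UMI of Scx was found in 27.7% (20.9 to 35.5), 39.7% (35.1 to 44.4), 59.1% (48.5 to 69.2), 64.1% (55.3 to 72.3) and 60.4% (50.2 to 70.0) of the tenocyte-like cells, against 18.4% to 37.0% of the other stromal cells and 1.87% to 10.3% of the endothelial cells. The unthinned shares of the tenocyte-like cells were between 66.4% and 84.2%.

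Mkx, the other tendon transcription factor, was sparse, at 20.8, 34.9, 51.5, 42.5 and 28.0 CPM in the tenocyte-like cells and 15.4, 21.1, 23.4, 16.2 and 16.3 CPM in the other stromal cells. Thbs4, which encodes thrombospondin 4 of the tendon matrix and lies at chr13:92751590-92794818 on the minus strand, was at 476, 1167, 1074, 1904 and 1257 CPM. Its ratio to the other stromal cells was 0.951 at 3 d and 1.25, 1.35, 1.80 and 2.06 in the later libraries and after injury. Fmod, which encodes the collagen-binding proteoglycan fibromodulin and lies at chr1:134037254-134048277 on the plus strand, was at 407, 3161, 4466, 5281 and 4581 CPM, with ratios of 1.45, 0.793, 1.02, 1.13 and 1.06. The tendon genes were therefore not confined to the tenocyte-like cells: Scx and Thbs4 were widely found in the other disc stroma, and Fmod did not set the cells apart after 3 d.

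Markers of other cell types were low for some types and not for others. The 8 endothelial genes (among them Pecam1, Kdr and Plvap) summed to at most 48.0 CPM in the tenocyte-like cells, with Plvap the most abundant, against 4002 to 8317 CPM in the Cdh5 cells, and Cdh5 itself was at 0 by the rule. The 8 macrophage genes summed to 12.8 to 40.5 CPM, with Cd68 most abundant and Tyrobp at 0 by the rule. The 6 Schwann cell genes summed to 1.56 to 28.1 CPM, with 2 of them at 0, and the 8 skeletal muscle genes to 3.11 to 18.2 CPM. The 8 mural genes summed to 281, 328, 479, 222 and 187 CPM, above the 153, 184, 193, 110 and 113 CPM of the other stromal cells. Rgs5 had to be absent from the other stromal cells, which adds to this difference by construction. Pdgfrb and Mylk, which fibroblasts also express, held many of these UMIs, though Acta2, the smooth muscle actin, led at 3 d. Acta2 was at 72.9, 44.1, 83.1, 29.5 and 26.4 CPM against 48.2, 23.2, 36.8, 17.0 and 13.0 CPM in the other stromal cells, above them in every library, and 69.0% of its 16 w UMIs came from 1 cell. Most UMIs of the pericyte marker Rgs5 came from 1 cell in the libraries that held more than a single UMI of it, with 62.4% at 3 d, 86.4% at 3 w and 61.5% at 16 w. The erythroid genes, the globins and Alas2, summed to 707 CPM at 3 d, below the 3410 CPM of the other stromal cells, and to at most 20.2 CPM elsewhere. The 7 adventitial fibroblast genes summed to 438, 424, 581, 1055 and 524 CPM with Dpt the most abundant, against 959, 397, 473, 883 and 533 CPM in the other stromal cells. Pi16 belongs to that list, and the rule kept it at 0 in the tenocyte-like cells while the other stromal cells held 110 CPM of it at 3 d, so that part of the difference is by construction. The 5 synovial lining genes summed to 159, 1071, 2479, 5102 and 1579 CPM, nearly all of it Prg4, against 220, 3183, 7954, 12444 and 3902 CPM. Cells with more than 3 times the library's median UMIs, which can be 2 cells in 1 droplet, were 10, 3, 0, 2 and 7 of the tenocyte-like cells. At 3 d that is 6.45% (3.14 to 11.5) of them against 0.941% (0.756 to 1.16) of the other stromal cells. In the injured library it was 7 of 125 against 2.16%. There and in the remaining libraries the intervals overlapped. In a droplet holding 2 cells the markers could come from different cells, and this was not tested.

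Compared with the other stromal cells of their library, which is the contrast the rule itself made, few genes of the tenocyte-like cells were apart in every library at once. A gene was taken as apart when it was at least 2-fold higher, or at least 2-fold lower, in all 5 libraries and held at least 100 UMIs in the higher class of each library. Of 1990 such genes outside the rule, 0 were higher (0%) and 8 were lower (0.402%). When the minimum of 100 UMIs was asked at the depth of the tenocyte-like cells, 0 of 736 were higher (0%) and 2 were lower (0.272%), and the median over these 736 genes of the mean ratio was 0.987. Without the injured library, 0 of 2768 genes were higher in all 4 normal libraries and 13 were lower. Of the 8 genes lower in all 5 libraries, Hbb-bs, Hba-a1 and Hba-a2 belong to the erythroid list. With the minimum asked at the depth of the tenocyte-like cells, the lists by function had 0 members beyond 2-fold in all libraries. Their median was 1.43 over 5 tendon lineage genes, 1.40 over 10 fibrillar and associated collagens, 1.07 over 7 small leucine-rich proteoglycans, 1.26 over 14 immediate early genes and 0.675 over 5 cartilage genes. It was 1.09 over 6 collagen processing genes, 1.11 over 4 TGF-beta and BMP genes, 1.18 over 3 Wnt modulators, 1.16 over 4 matrix proteases and inhibitors, 1.23 over 2 imprinted genes, 0.708 over 2 mineralization genes and 0.631 over 2 CCN and mechanosensing genes, and no gene of the cell cycle and inflammation lists held enough UMIs.

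Genes were then ordered by their smallest ratio over the libraries, and Rspo1 came first. Rspo1, which encodes the Wnt-enhancing ligand R-spondin 1, was at 17.2, 11.0, 17.6, 25.2 and 20.2 CPM in the tenocyte-like cells against 6.22, 3.41, 2.37, 3.86 and 3.89 CPM in the other stromal cells, a ratio of 2.76 (1.88 to 3.93) at 3 d and of 7.41 (4.06 to 12.6) at 16 w. It was found in at most 19.5% of the tenocyte-like cells of a library, and its total over the libraries was 169 UMIs. Adra1a, an alpha-1 adrenergic receptor, had a ratio of 2.28 (0.820 to 5.12) in the 3 d library, 4.11 (3.20 to 5.23) in the 3 w library, 13.3 (7.49 to 22.4) in the 16 w library, 22.8 (10.7 to 45.7) in the 78 w library and 6.90 (2.60 to 15.6) in the injured one, on 129 UMIs in all. Cnr1, the cannabinoid receptor 1, had ratios between 1.72 and 10.1 and Sema3b, a secreted semaphorin, between 1.97 and 4.00. These genes were found in small parts of the cells and do not describe each of them.

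Other genes of the same order encode proteins of the matrix and the cytoskeleton. Spon1, which encodes the secreted adhesion protein F-spondin, was 1.74 to 5.07 times as high, on 748 UMIs. Mylk, the kinase that phosphorylates myosin light chain, was at 71.4, 91.1, 221, 88.5 and 77.8 CPM against 39.9, 45.3, 66.7, 28.1 and 40.2 CPM, ratios between 1.79 and 3.32. Crispld2, a secreted cysteine-rich protein, was 1.70 to 2.88 times as high on 2688 UMIs, and Enc1, an actin-associated Kelch protein, 1.84 to 3.12 times. Zfp185, a LIM domain protein bound to actin, had ratios between 1.71 and 2.47, and Gm13305, a predicted gene, between 1.69 and 4.96. Against the stromal cells high in Chad, the ratio of Rspo1 was 7.19 to 30.6 and that of Mylk 2.16 to 3.86 in the 4 libraries that had such cells, and against the Pi16 stromal cells Mylk had ratios between 2.00 and 12.2. Rspo1 differed less from the Pi16 stromal cells, with ratios between 0.866 and 3.14, the lowest in the injured library with its 29 Pi16 stromal cells. In the normal libraries the ratios to these cells were 0.900 to 2.60 for Sema3b, 2.04 to 3.32 for Cnr1 and 1.17 to 4.43 for Enc1. In the injured library they were 0.533, 0.333 and 0.799 in that order. Against the marker cells kept out by the limits on Chad, Ibsp and Col2a1 the ratios at 3 w and 16 w were smaller, at 1.10 and 1.13 for Spon1, 1.35 and 1.20 for Mylk, 1.47 and 1.05 for Crispld2, 1.56 and 1.18 for Gm13305 and 1.95 and 2.15 for Rspo1. They were also smaller for Enc1 at 2.37 and 1.06, Sema3b at 1.26 and 1.865 and Cnr1 at 2.425 and 1.40. The rule of choice also took Tmem52, Rspo3, Otor, B230312C02Rik and Emid1, but each had fewer than 3 UMIs in the tenocyte-like cells of 1 or more libraries, which were counted as 3, so that their ratios are not given. Otor and Rspo3 were at 103 and 59.4 CPM in the 3 d tenocyte-like cells against 48.6 and 28.0 CPM in the other stromal cells.

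Genes lower in the tenocyte-like cells of all libraries included genes of the joint surface. Prg4, which encodes lubricin, was at 64.1, 1020, 2396, 5068 and 1495 CPM against 122, 3098, 7906, 12370 and 3801 CPM, ratios between 0.303 and 0.523, and 2113 of its 78 w UMIs came from 1 cell. The endothelial cells held 53.6, 947, 1983, 3009 and 1223 CPM of Prg4. Cytl1, a secreted cytokine-like protein of cartilage, was at 102 CPM against 2211 CPM at 16 w and at 121 CPM against 3063 CPM at 78 w, and 56.3% of its 16 w UMIs came from 1 cell. Errfi1, a feedback inhibitor of the EGF receptor, had ratios between 0.254 and 0.440, Tnfrsf11b, the decoy receptor osteoprotegerin, between 0.121 and 0.265, and Scara3, a scavenger receptor, between 0.226 and 0.438. Cytl1 and Tnfrsf11b were higher in the endothelial cells than in the tenocyte-like cells of every library, and so was Errfi1 except at 16 w. The part of free RNA in the ratios of these genes was not tested. Sbsn and Dmkn, neighbouring genes of secreted epithelial proteins, had ratios of 0.283 to 0.455 and 0.0699 to 0.399. Rgcc, a regulator of the cell cycle, was at ratios between 0.310 and 0.550, Aldh1a3, an enzyme of retinoic acid synthesis, between 0.244 and 0.524, Has1, a hyaluronan synthase, between 0.166 and 0.547, S100b, a calcium-binding protein, between 0.195 and 0.534, and Nxph4, a neurexophilin, between 0.173 and 0.553. Single cells held 88.3% and 76.1% of the Dmkn UMIs at 16 w and 78 w, 62.5% of the Has1 UMIs at 16 w and 61.5% of the Aldh1a3 UMIs at 16 w. Against the Pi16 stromal cells several of these genes were lower at 3 d but not at 3 w, with ratios of 0.290 and 1.15 for Sbsn, 0.353 and 1.28 for Dmkn, 0.0767 and 1.66 for Tnfrsf11b, 0.353 and 1.18 for Rgcc, and 0.446 and 1.30 for S100b. S100b was lower again at 16 w, at 0.299, and Scara3 had ratios of 0.212 to 0.431 in all libraries. Against the marker cells kept out by the limits, most were also lower at 3 w, with ratios of 0.0422 for Cytl1, 0.313 for Dmkn, 0.321 for Tnfrsf11b, 0.356 for Nxph4, 0.424 for Scara3 and 0.494 for Sbsn. Errfi1 at 0.998 and Has1 at 4.91 were not. At 16 w Cytl1, S100b, Scara3, Prg4, Nxph4, Sbsn, Tnfrsf11b and Errfi1 had ratios between 0.0522 and 0.799 to those cells. Dmkn at 11.05, Has1 at 1.97, Aldh1a3 at 1.12 and Rgcc at 1.01 were not lower there. Hbb-bs, Hba-a1 and Hba-a2 were also lower, but they are globins of red blood cells, Hba-a1 and Hba-a2 are near-identical copies whose reads can be split, and 49.6% of the Hbb-bs UMIs of the 3 d cells came from 1 cell.

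**Figure D4:**
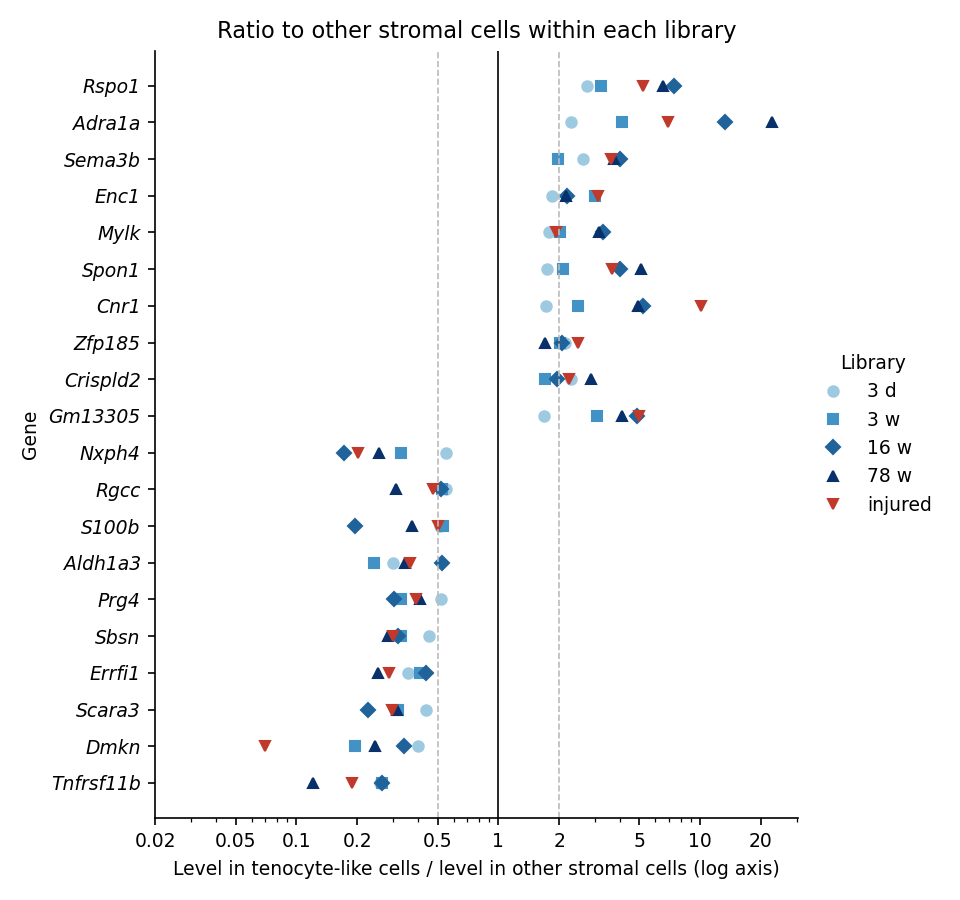
Ratio of the level in tenocyte-like cells to that in the other stromal cells of the same library, on a log axis, for the 20 chosen genes (10 higher, 10 lower) with at least 4 UMIs in the tenocyte-like cells of every library; each point is 1 library and dashed lines mark 2-fold. The points of Rspo1 lie between 2.76 and 7.41 and those of Prg4 between 0.303 and 0.523.

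The tenocyte-like cells were then compared between libraries. A gene was counted as higher or lower when the ratio of its levels was at least 2 in that direction and it held at least 100 UMIs in the library with the higher level. The 3 w cells held several times as many UMIs as those of other libraries, so this minimum admits more genes that are high at 3 w, and each count is also given with the minimum asked at the depth of the shallower library. The comparisons share libraries and are not independent of each other: the 3 w and the 16 w cells each enter 3 of them.

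Between 3 d and 3 w, 1608 of 5462 genes (29.4%) were at least 2-fold higher at 3 w and 406 (7.43%) lower, and with the balanced minimum 820 of 3198 (25.6%) and 406 (12.7%). When mitochondrial and ribosomal protein genes were left out of the totals, 4939 genes were tested, and 1106 were higher and 651 lower. Of the 820 higher and 406 lower genes, 77.7% and 80.0% were beyond 2-fold in the same direction in the other stromal cells. Angptl7, a secreted angiopoietin-like protein, was at 2233 CPM at 3 w with 1 UMI at 3 d, a ratio of 1428 with counts under 3 taken as 3 and an interval of 769 to 169274 on the counts themselves. Cilp2, a cartilage intermediate layer protein, went from 1.56 to 696 CPM (ratio 446, 152 to 2161), Comp, the cartilage oligomeric matrix protein that binds collagen fibrils, from 78.2 to 4065 CPM (ratio 52.0, 44.3 to 61.5), and Spp1, the phosphoprotein osteopontin, from 22.4 to 1750 CPM (ratio 78.1, 58.0 to 108). Myoc, which encodes myocilin, went from 9.38 to 1824 CPM, and Galnt15, an O-glycosylation enzyme, was at 74.2 CPM at 3 w with 0 UMIs at 3 d, at least 47.5-fold higher when the 0 is counted as 3.

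The circadian repressor Nr1d1 and the clock output factor Dbp were at 568 and 442 CPM at 3 w against 6.77 and 5.73 CPM at 3 d, and the metallothionein Mt1 at 3715 against 71.4 CPM. Tmem140, a membrane protein, was at 136 CPM with 2 UMIs at 3 d. The hour of collection was not given, and its part in the clock genes was not tested. Lower at 3 w were the fetal growth genes Igfbp2, an IGF-binding protein, at 2.86 against 664 CPM (ratio 0.00431, 0.00259 to 0.00676), and H19, an imprinted RNA, at 3.76 against 511 CPM (ratio 0.00737, 0.00475 to 0.0109). Otor, which encodes otoraplin, went from 103 CPM to 2 UMIs, and 2810417H13Rik, a factor of DNA replication, from 84.9 CPM to 1 UMI. The rule of choice also took Xist, which follows the sex of the animals, the globins Hbb-bs, Hbb-bt, Hba-a1 and Hba-a2, and Ccl5, a chemokine whose 230 UMIs at 3 d came from 3 cells, 56.5% of them from 1 cell.

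Between 3 w and 16 w, 100 of 4687 genes (2.13%) were at least 2-fold higher at 16 w and 740 (15.8%) lower. With the balanced minimum the counts were 100 of 1359 (7.36%) and 136 (10.0%), so that the excess of lower genes was much smaller. Of these 100 and 136 genes, 59 and 49 were beyond 2-fold in the same direction in the other stromal cells. The leading higher gene was the marker Coch, which the rule used. Spon2, a secreted mindin protein of the F-spondin family, went from 16.1 to 451 CPM (ratio 28.0, 22.5 to 35.0), against a ratio of 8.57 in the other stromal cells. Igfbp3 and Igfbp5, IGF-binding proteins, went from 73.9 to 666 CPM (ratio 9.01, 7.97 to 10.2) and from 382 to 3237 CPM (ratio 8.47, 8.02 to 8.94), while the other stromal cells had ratios of 3.59 and 3.00. The complement gene C4b was at 353 CPM at 16 w against 46.4 CPM at 3 w, a ratio of 7.62 that was 3.92 over the cells without Coch. Fbln1, the matrix protein fibulin 1, went from 67.9 to 559 CPM, and Cyr61, a matricellular protein, from 114 to 954 CPM. Hspa1b, a heat shock protein with the near-identical copy Hspa1a, went from 239 to 2100 CPM. Hbegf, an EGF receptor ligand, went from 45.3 to 344 CPM (ratio 7.60), but 44.9% of its 16 w UMIs came from 1 cell. The ratio was 4.30 without that cell and 3.00 over the cells without Coch.

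Lower at 16 w was Postn, which encodes periostin of growing and healing collagen tissue, from 146 CPM at 3 w to 2 UMIs. Wif1, a secreted Wnt inhibitor, went from 39.6 CPM to 1 UMI, whereas the other stromal cells held 53.6 and 71.3 CPM. Scrg1, a gene of mesenchymal and cartilage cells, went from 88.2 to 10.5 CPM (ratio 0.119, 0.0543 to 0.228), against 184 and 211 CPM in the other stromal cells. Acan, the aggrecan core protein, went from 29.6 CPM to 2 UMIs, against 27.6 and 35.2 CPM. Ppic, a cyclophilin of the secretory pathway, went from 413 to 32.8 CPM (ratio 0.0794, 0.0526 to 0.115). The remaining genes of the rule of choice, Col9a3, the circadian gene Per3, the pentraxin Ptx3, the amine oxidase Aoc2 and Gm26523, held 0 to 3 UMIs in the 16 w cells.

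Between 16 w and 78 w the shares of genes beyond 2-fold were small, with 59 of 1622 genes (3.64%) at least 2-fold higher at 78 w and 14 (0.863%) lower, and with the balanced minimum 38 of 1206 (3.15%) and 14 (1.16%). Of these, 14 of the 38 higher and 4 of the 14 lower genes did so in the other stromal cells too. Tnn and Tnc, which encode the tenascins W and C, went from 8.19 to 153 CPM (ratio 18.7, 8.92 to 47.1) and from 10.5 to 95.7 CPM (ratio 9.08, 4.64 to 20.3), on 7 and 9 UMIs at 16 w, against ratios of 5.19 and 2.07 in the other stromal cells. Col3a1, the alpha chain of collagen III, went from 880 to 3099 CPM (ratio 3.52, 3.26 to 3.81), against 1.55 in the other stromal cells, and 17.8% of its 78 w UMIs came from 1 cell. Timp1, an inhibitor of matrix metalloproteinases, went from 15.2 to 80.6 CPM (ratio 5.30, and 9.88 over the cells without Coch), and 53.8% of its 13 UMIs at 16 w came from 1 cell. Pcsk5, a proprotein convertase, went from 19.9 to 83.5 CPM, and Tnfaip6, a hyaluronan-binding protein, from 77.2 to 288 CPM. Angptl2, Ppic, Ly6a and Erdr1 were also named, with ratios of at most 6.76, though that of Ly6a was 12.8 over the cells without Coch.

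Genes lower at 78 w were Thbs1, the matricellular thrombospondin 1, at 30.9 against 135 CPM (ratio 0.230, 0.158 to 0.329), the heat shock genes Hspa1a at 708 against 2343 CPM and Hspa1b at 941 against 2100 CPM, and Mylk at 88.5 against 221 CPM. Tbx18, a mesenchymal transcription factor, the imprinted Peg3, the thioredoxin inhibitor Txnip, Ccdc3 and Gm13305 had ratios between 0.197 and 0.460. Over the cells without Coch the ratio of Thbs1 was 0.133 and that of Gm13305 0.351 in place of 0.197. Hbegf had a ratio of 0.443 over all tenocyte-like cells, of 0.783 without 1 cell of the 16 w library and of 1.04 over those without Coch.

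Over the whole of the normal ages, 489 of 2583 genes (18.9%) were at least 2-fold higher at 78 w than at 3 d and 377 (14.6%) lower, and with the balanced minimum 489 of 2201 (22.2%) and 299 (13.6%). Without mitochondrial and ribosomal protein genes in the totals the split turned, with 389 higher and 605 lower of 2644 genes tested. In the other stromal cells 350 of the 489 and 239 of the 299 moved beyond 2-fold in the same direction. Higher at 78 w were the complement genes C3 at 215 CPM, with 0 UMIs at 3 d and thus at least 138-fold higher with the 0 counted as 3, and C4b at 858 against 7.82 CPM (ratio 110, 66.3 to 197). Spp1 was at 3235 against 22.4 CPM, Myoc at 1849 against 9.38 CPM, the metallothionein Mt2 at 3331 against 30.2 CPM, and Angptl7 at 1231 CPM with 1 UMI at 3 d. The Wnt modulator Sfrp4 and Uts2r, the urotensin receptor, were at 138 and 133 CPM with 2 and 3 UMIs at 3 d, and Coch also belonged to this group.

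Among the genes lower at 78 w than at 3 d, Igfbp2 and H19 held 0 UMIs at 78 w, at least 308-fold and 237-fold lower with the 0 counted as 3. Igf2, the fetal insulin-like growth factor, was at 6.47 against 902 CPM (ratio 0.00718, 0.00328 to 0.0137), and Mest, an imprinted gene of fetal mesoderm, at 2.16 against 317 CPM. Eln, which encodes elastin, was at 8.63 against 1758 CPM (ratio 0.00491, 0.00253 to 0.00859), Fbn2, the fibrillin of developing microfibrils, at 5.04 against 452 CPM, and Postn at 40.3 against 3303 CPM (ratio 0.0122, 0.00920 to 0.0159). Ly6h, a membrane-anchored protein, had 1 UMI at 78 w and 203 CPM at 3 d, and Xist and Hba-a1 were named by the same rule.

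The genes of lists by function were counted on the balanced minimum. Of all genes, 25.6% were higher and 12.7% lower at 3 w against 3 d, and 7.36% and 10.0% at 16 w against 3 w. The shares were 3.15% and 1.16% at 78 w against 16 w, and 22.2% and 13.6% at 78 w against 3 d. The median ratios over all genes were 1.20, 0.919, 1.03 and 1.01 in that order, and the counts and medians of each list are to be read against these values. Of 12 fibrillar and associated collagens, 0 were higher and 3 lower at 3 w than at 3 d (median ratio 0.680 against 1.20 over all 3198 genes). At 16 w 9 of 11 were lower than at 3 w and 0 higher (median 0.345 against 0.919). At 78 w 4 of 10 were higher than at 16 w and 0 lower (median 1.77 against 1.03). Against 3 d, 9 of 11 were lower at 78 w (median 0.375 against 1.01).

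Col1a1, the main collagen of tendon, was at 14309 CPM at 3 d, 14051 CPM at 3 w, 2238 CPM at 16 w, 3636 CPM at 78 w and 38027 CPM in the injured tenocyte-like cells. The other stromal cells held 9568, 12936, 916, 837 and 23523 CPM, so that the ratio between the classes was 1.495 at 3 d, 1.09 at 3 w, 2.44 at 16 w, 4.34 at 78 w and 1.62 after injury. Col1a1 was thus higher at 78 w than at 16 w in the tenocyte-like cells (ratio 1.63, 1.54 to 1.71) and not in the other stromal cells (ratio 0.914), though 20.1% of its 78 w UMIs came from 1 cell, and this difference between the classes was not tested. Col12a1 and Col14a1, fibril-associated collagens of tendon, were at 721, 120, 172, 211 and 272 CPM and at 1118, 530, 562, 930 and 780 CPM. Both were above the other stromal cells in all 5 libraries, by ratios between 1.41 and 2.73 for Col12a1 and between 1.45 and 3.07 for Col14a1.

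**Figure D5:**
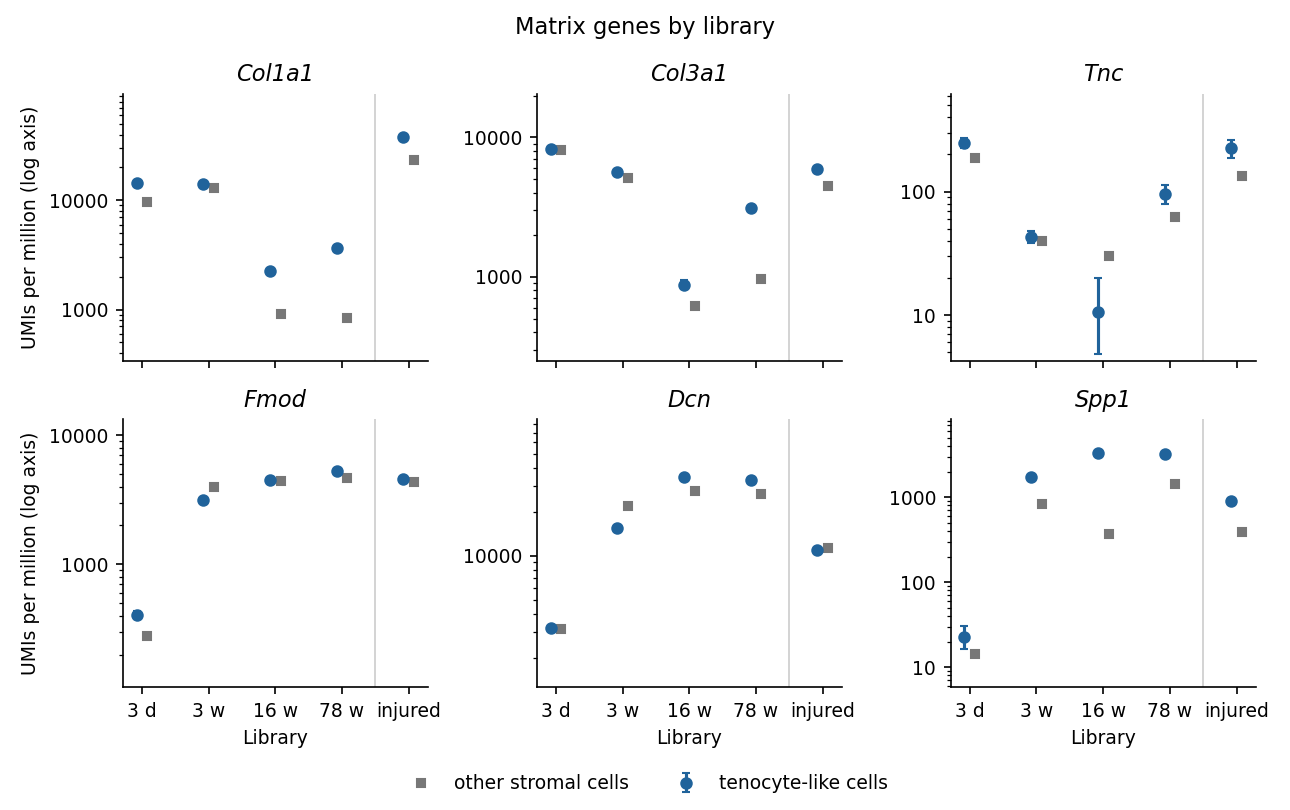
Levels of Col1a1, Col3a1, Tnc, Fmod, Dcn and Spp1 in CPM (UMIs per 1000000) on a log axis in the 5 libraries, for tenocyte-like cells (points with exact 95% Poisson intervals, counting error only) and other stromal cells (grey squares, without intervals). Col1a1 is at 2238 CPM at 16 w and 38027 CPM after injury in the tenocyte-like cells.

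Genes that modify and assemble collagen were mixed. Of the collagen processing genes, 2 of 17 were higher and 5 lower at 3 w than at 3 d, 0 of 8 higher and 1 lower at 16 w, 0 of 8 beyond 2-fold at 78 w against 16 w, and 2 of 16 higher and 7 lower at 78 w against 3 d, with median ratios of 0.807, 0.992, 1.33 and 0.705. Sparc, a collagen-binding glycoprotein and the most abundant of them, was at 14054, 23181, 3872, 5400 and 14955 CPM. Serpinh1, the collagen chaperone HSP47, was at 1146, 390, 509, 966 and 1071 CPM.

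The small leucine-rich proteoglycans, which bind collagen fibrils and set their thickness, were mixed at 3 w. Of 8 tested, 4 were higher and 2 lower at 3 w (median ratio 2.48), 2 higher and 1 lower at 16 w (1.59), 2 of 8 higher at 78 w (1.07), and 5 of 9 higher at 78 w against 3 d with 0 lower (2.79). Dcn (decorin) was at 3187, 15612, 34499, 32991 and 10998 CPM. Ogn (osteoglycin) was at 808, 508, 1299, 767 and 509 CPM against 689, 201, 340, 203 and 151 CPM in the other stromal cells, a ratio of 1.17 at 3 d and between 2.53 and 3.82 in the other libraries. Aspn (asporin) was at 1032, 334, 570, 1271 and 514 CPM, with ratios between 1.18 and 1.86 to the other stromal cells, and Lum (lumican) at 1530, 550, 436, 1308 and 630 CPM.

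Of the tendon lineage genes, 2 of 8 were higher and 1 lower at 3 w than at 3 d, 3 of 6 higher at 16 w, 0 of 6 beyond 2-fold at 78 w against 16 w, and 3 of 7 higher and 1 lower at 78 w against 3 d (median ratios 1.26, 1.98, 0.972 and 1.54). The 3 w counts of this list are no larger than the shares of all genes. Scx had a ratio of 1.43 (1.26 to 1.62) at 3 w, 2.55 (2.30 to 2.83) at 16 w against 3 w and 0.762 (0.675 to 0.861) at 78 w against 16 w. The other stromal cells followed with 1.68, 1.63 and 0.888. Thbs2, thrombospondin 2 of collagen fibril assembly, was at 462, 441, 1270, 712 and 461 CPM. Egr1, a mechanically induced transcription factor of tendon that is also an immediate early gene, was at 974, 496, 1922, 1113 and 285 CPM, and Tppp3, a marker of the tendon sheath, at 99.0, 145, 126, 151 and 143 CPM against 235, 158, 161, 178 and 148 CPM in the other stromal cells.

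Cartilage genes other than those of the rule included 5 of 11 that were higher and 2 lower at 3 w, 2 of 6 higher and 1 lower at 16 w, 1 of 7 higher at 78 w against 16 w, and 6 of 10 higher and 3 lower at 78 w against 3 d (median ratios 1.39, 1.29, 1.01 and 10.1). Summed over the list they were at 1135, 7372, 7970, 13362 and 5834 CPM, against 1021, 12742, 20025, 27839 and 10508 CPM in the other stromal cells. Cilp, the cartilage intermediate layer protein, was at 78.7, 762, 1400, 1409 and 678 CPM, ratios of 1.76 to the other stromal cells at 3 d and of 0.501 to 0.560 after that. Sox9, a chondrogenic differentiation marker of the study, was found in 69.7%, 79.4%, 80.65%, 79.7% and 67.2% of the tenocyte-like cells without thinning. Acan was at 184, 29.65, 2.34, 54.7 and 59.1 CPM against 99.3, 27.6, 35.2, 118 and 61.8 CPM in the other stromal cells. Its ratio was 1.86 at 3 d, 1.08 at 3 w, 0.0998 at 16 w, 0.465 at 78 w and 0.957 after injury. Chad, which the rule limits, was at 31.3, 465, 375, 265 and 207 CPM against 11.2, 1641, 3385, 2069 and 1599 CPM.

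Of the mineralization genes, 3 of 4 were higher at 3 w, 1 of 4 lower at 16 w, 0 of 3 beyond 2-fold at 78 w against 16 w and 2 of 4 higher at 78 w against 3 d, with median ratios of 2.74, 0.874, 1.11 and 2.10. Spp1 was at 1750 CPM at 3 w, 3300 CPM at 16 w and 3235 CPM at 78 w against 835, 373 and 1442 CPM in the other stromal cells, and Mgp, the matrix Gla protein that inhibits calcification, at 914, 2359, 914, 1409 and 1433 CPM against 852, 3908, 3138, 5450 and 3314 CPM. Spp1 was thus above and Mgp below the other stromal cells in these 3 libraries.

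The signalling lists were mixed. Of the TGF-beta and BMP genes, 4 of 12 were higher and 4 lower at 3 w, 3 of 9 higher at 16 w, 0 of 9 beyond 2-fold at 78 w against 16 w, and 7 of 14 higher and 3 lower at 78 w against 3 d (median ratios 1.49, 1.75, 0.949 and 2.06). Ltbp4, which stores latent TGF-beta in the matrix, was at 164, 286, 605, 610 and 388 CPM, Tgfb3, a TGF-beta ligand, at 57.8, 134, 235, 131 and 118 CPM, and Chrdl1, a BMP antagonist, at 5.21, 116, 295, 239 and 110 CPM. Of the Wnt modulators, 4 of 6 were lower and 0 higher at 3 w, 2 of 4 higher at 16 w, 1 of 4 higher at 78 w against 16 w, and 2 of 5 higher and 2 lower at 78 w against 3 d (median ratios 0.173, 2.19, 1.38 and 1.93). Of the CCN and mechanosensing genes, 2 of 5 were higher and 2 lower at 3 w, 1 of 3 higher at 16 w, 1 of 3 lower at 78 w against 16 w, and 4 of 6 higher and 2 lower at 78 w against 3 d (median ratios 1.44, 1.51, 0.729 and 4.27). Ctgf, a matricellular CCN protein, was at 94.3, 2012, 2661, 2737 and 644 CPM against 90.4, 2696, 6096, 5533 and 1078 CPM.

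Sfrp2, a secreted Wnt modulator, was at 1199 CPM at 3 d, 64.6 CPM at 3 w, 164 CPM at 16 w, 239 CPM at 78 w and 622 CPM in the injured tenocyte-like cells. The other stromal cells held 1602, 24.4, 10.2, 14.1 and 123 CPM, ratios of 0.748, 2.65, 16.0, 16.9 and 5.05. It was found in 22.6% of the 16 w and 30.1% of the 78 w tenocyte-like cells, and 52.1% of its 16 w UMIs came from 1 cell.

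Immediate early genes, which also respond to the digestion of tissue, were higher in the adult libraries than at 3 d. Of 17, 14 were higher and 0 lower at 3 w than at 3 d, 9 higher and 0 lower at 16 w than at 3 w, 0 higher and 2 lower at 78 w than at 16 w, and 15 higher and 0 lower at 78 w than at 3 d (median ratios 2.84, 2.05, 0.771 and 4.85). Fos, a subunit of the AP-1 factor, had a ratio of 2.84 (2.71 to 2.97) at 3 w and 2.78 (2.71 to 2.86) at 16 w against 3 w, and 1.64 and 1.81 in the other stromal cells. The list summed to 5107, 15877, 35244, 25375 and 11432 CPM in the tenocyte-like cells and 6479, 11622, 19836, 13202 and 10568 CPM in the other stromal cells. The part of digestion in the comparisons between libraries was not tested.

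Most imprinted growth genes were lower after 3 d. Of 12 imprinted fetal growth genes, 1 was higher and 9 lower at 3 w, and 0 were higher and 10 lower at 78 w against 3 d (median ratios 0.301 and 0.285), while 1 of 4 was higher and 1 lower at 16 w and 1 of 3 lower at 78 w against 16 w (medians 1.21 and 0.748). The cell cycle genes summed to 514 CPM at 3 d and to 70.0 to 106 CPM in the other libraries, and 1 of the 2 tested was lower at 3 w and the 1 tested was lower at 78 w than at 3 d. Of the matrix proteases and inhibitors, 2 of 9 were higher and 1 lower at 3 w, 1 of 7 higher and 2 lower at 16 w, 2 of 7 higher at 78 w against 16 w, and 3 of 10 higher and 1 lower at 78 w against 3 d (medians 1.15, 1.21, 1.05 and 1.24). Mmp2, a gelatinase, was at 479, 551, 222, 530 and 952 CPM against 404, 277, 88.7, 168 and 531 CPM, above the other stromal cells in each library. Of the inflammation and interferon genes, 2 of 5 were higher at 3 w, 1 of 2 at 16 w, 2 of 3 at 78 w against 16 w and 4 of 5 at 78 w against 3 d, with 0 lower (medians 1.40, 2.52, 2.12 and 4.26). The chemokine Cxcl12 was at 82.3, 48.0, 183, 350 and 40.5 CPM.

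The injured tenocyte-like cells were set beside those of 3 w and 16 w, the normal libraries on both sides of their age. Against 3 w, 137 of 5014 genes (2.73%) were at least 2-fold higher and 1509 (30.1%) lower, and with the balanced minimum 137 of 1052 (13.0%) and 182 (17.3%). Against 16 w, 151 of 1148 (13.2%) were higher and 221 (19.3%) lower, and with the balanced minimum 151 of 989 (15.3%) and 171 (17.3%). The other stromal cells moved beyond 2-fold in the same direction in 100 of the 137, 127 of the 182, 111 of the 151 and 114 of the 171 genes.

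Col1a1 was the leading collagen of the injured library. Col1a1 at 38027 CPM was 2.71 times (2.67 to 2.75) the 3 w level and 17.0 times (16.2 to 17.8) the 16 w level, and in the other stromal cells the ratios were 1.82 and 25.7. Col3a1 at 5969 CPM was 1.06 times the 3 w level and 6.78 times (6.27 to 7.34) the 16 w level. Of 11 fibrillar and associated collagens, 2 were higher and 0 lower against 3 w (median 1.38 against 0.906 over all 1052 genes), and 9 were higher and 0 lower against 16 w (median 3.98 against 0.965 over all 989 genes). Tnc was at 224 CPM against 43.1 CPM at 3 w (ratio 5.21, 4.23 to 6.38) and 10.5 CPM at 16 w (ratio 21.3, 10.9 to 47.5), with ratios of 3.41 and 4.43 in the other stromal cells, and Postn at 414 CPM against 146 CPM at 3 w (ratio 2.84, 2.47 to 3.25) and 2 UMIs at 16 w.

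Other genes that were high in the injured cells against both ages were Sfrp2 (9.64 times the 3 w level) and Gm26870, an unannotated RNA, at 2157 CPM against 327 and 163 CPM, lower than the 7538 CPM of the injured other stromal cells, and 34.5% of its injured UMIs came from 1 cell. Spon2 was at 268 CPM against 16.1 CPM at 3 w but 451 CPM at 16 w. Ifi27l2a, an interferon-induced protein, was at 425 CPM against 25.6 CPM at 3 w (ratio 16.6, 13.7 to 20.2), close to the ratio of 14.2 in the other stromal cells. Igf1, the insulin-like growth factor, was at 624 CPM against 114 CPM at 3 w (ratio 5.49, 4.85 to 6.21), and 24.2% of its UMIs came from 1 cell. Tmsb10, a thymosin that binds actin, was at 2155 against 397 CPM, the nucleotide kinase Nme2 at 216 against 32.2 CPM and the predicted gene Gm11808 at 233 against 28.6 CPM. Against 16 w, Ppic, the zinc transporter Slc39a1 and Scrg1 were 16.1, 8.14 and 15.4 times as high. The rule of choice also took Xist and B230312C02Rik, whose 114 UMIs came from 1 cell.

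Among the genes lower in the injured cells, Irf1, an interferon regulatory factor, was at 20.2 CPM against 219 CPM at 3 w and 221 CPM at 16 w (ratios 0.0922, 0.0490 to 0.158, and 0.0914, 0.0478 to 0.160), and Btg2, an antiproliferative factor, at 48.2 against 507 and 433 CPM. Gadd45g and Gadd45b, stress sensors, were at 74.7 and 226 CPM against 1362 and 1862 CPM at 16 w, and Mt2 at 579 against 4862 CPM. The heat shock genes Hspa1a and Hspa1b, at 1055 and 1282 CPM, were 2.98 and 5.37 times as high as at 3 w and lower than at 16 w, with ratios of 0.450 and 0.611. The adhesion receptor Icam1 was at 29.6 CPM against 271 CPM at 3 w, the ubiquitin-conjugating enzyme gene Ube2q2 at 20.2 against 352 CPM, and the chemokine Ccl2 held 1 UMI. Of 16 immediate early genes tested, 2 were higher and 6 lower against 3 w (median 0.584), and 0 were higher and 12 lower against 16 w (median 0.285). Galnt15 was at 6.22 CPM against 74.2 and 185 CPM, and C4b at 43.6 CPM against 353 CPM at 16 w. Gm42418, a locus that overlaps ribosomal RNA, was at 682 CPM against 9074 CPM at 3 w, with ratios of 0.0751 and 0.0636 in the tenocyte-like and other stromal cells. Pik3ip1 and Ablim1 were also named, with ratios of 0.0975 against 3 w and 0.120 against 16 w, as were the Y-linked Ddx3y and Eif2s3y and the marker Coch.

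In the remaining lists few genes were beyond 2-fold against 3 w, where 13.0% of all genes were higher and 17.3% lower, while against 16 w the shares were 15.3% and 17.3%. Of 6 tendon lineage genes, 1 was higher against 3 w and 1 higher and 2 lower against 16 w, and Scx was at 1.83 times (1.60 to 2.09) the 3 w level and 0.717 times (0.614 to 0.835) the 16 w level. The small leucine-rich proteoglycans had 0 of 8 beyond 2-fold against 3 w and 3 of 8 lower against 16 w, Dcn among them at 10998 against 34499 CPM. Of 7 collagen processing genes, 2 were higher and 1 lower against 3 w and 3 higher against 16 w. Of the cartilage genes, 1 of 7 was lower against 3 w, and 1 of 6 was higher and 1 lower against 16 w. The mineralization genes had 0 of 4 beyond 2-fold against 3 w and 1 of 4 lower against 16 w, the TGF-beta and BMP genes 0 of 4 and 1 of 6 lower, and the Wnt modulators 1 of 3 higher against each. The CCN and mechanosensing genes had 1 of 3 higher and 1 lower against 3 w and 3 of 3 lower against 16 w, the proteases and inhibitors 0 of 5 against 3 w and 2 of 6 higher and 1 lower against 16 w, the inflammation and interferon genes 0 of 1 and 2 of 2 lower, and the imprinted genes 1 of 3 lower and 0 of 3.

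Since Coch divided the adult cells, the tenocyte-like cells with a UMI of Coch were compared with those without one at 16 w (54 and 39 cells) and 78 w (48 and 85 cells). Of 1202 genes with at least 50 UMIs in the higher group of both libraries, a lower minimum than in the other comparisons, 1 was at least 2-fold higher with Coch in both libraries (0.0832%) and 4 were at least 2-fold lower (0.333%). The higher gene was Cytl1, at 154 against 28.3 CPM at 16 w (ratio 5.44, 2.80 to 11.8) and 247 against 40.1 CPM at 78 w (ratio 6.15, 4.19 to 9.24). Without the cell that held the most Cytl1 the ratios were 2.03 (0.957 to 4.68) and 4.06 (2.70 to 6.24). The endothelial cells held 447.5 and 447.2 CPM of Cytl1 at 16 w and 78 w, above both groups, and the part of free RNA was not tested. The lower genes were Fibin, a secreted protein of fin bud and limb, with ratios of 0.315 (0.236 to 0.417) and 0.269 (0.196 to 0.363), Ifi27l2a with 0.347 and 0.234, Sfrp2 with 0.0543 and 0.380, and Igf1 with 0.389 and 0.428. Without the cell that held the most UMIs of the gene, Sfrp2 had ratios of 0.121 and 0.459. Ifi27l2a turned to 1.97 (0.931 to 4.52) at 16 w and stayed at 0.295 at 78 w. Tnmd had ratios of 0.358 (0.264 to 0.482) and 0.427 (0.353 to 0.514), which the rule shapes, since a cell without Coch had to carry Tnmd. Col1a1 was at 1709 against 2986 CPM at 16 w and at 2027 against 4667 CPM at 78 w. Scx was somewhat lower with Coch, at 509 against 647 CPM (ratio 0.787, 0.655 to 0.944) and 348 against 485 CPM (ratio 0.717, 0.6005 to 0.854). Prg4 was at 2658 against 2024 CPM at 16 w and at 8078 against 3137 CPM at 78 w. Without its leading cell, which carried Coch in both libraries, Prg4 had ratios of 1.15 (1.04 to 1.26) and 1.39 (1.31 to 1.47). Cells with and without Coch share a library, and cells are not replicates of it.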

How the data were processed

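Droplet libraries of dissociated TMJ discs were sequenced by the authors, who deposited 1 matrix of raw UMI counts per gene and cell barcode for each library. The submitters' processing notes name Cell Ranger 3.1 and the mm10 genome, whereas the file headers give Cell Ranger 4.0.0. The barcodes were already called as cells, and reads shared by near-identical genes may have been lost.

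Tenocyte-like cells, gene lists and the named-gene rule were chosen with earlier results of these data known. Within each library, the counts of a class of cells were added up. Of the tenocyte-like cells, 73 carried a UMI of the genes that stromal cells had to lack and were counted as stromal. Some genes that the rules took are not reported here. Endothelial cells held at least 2 UMIs of Cdh5, Pi16 stromal cells at least 2 UMIs of Pi16 and Chad-high stromal cells at least 2000 CPM of Chad, the last 2 classes with fewer than 5 marker UMIs. No doublet caller was run. Named genes were the 10 with the largest ratio in each direction between libraries and the 15 with the most extreme ratios between classes, among genes with at least 100 UMIs, with counts under 3 taken as 3. The 22 lists held 277 genes, and Cnmd and Snorc of the cartilage list were not found under these symbols.

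The alternatives were other limits on UMIs, markers, Chad, mitochondrial share and stromal genes, other scalings, another gene minimum, thinned counts and left-out cells. Scripts in Python 3.11.15 (numpy 2.4.6, scipy 1.17.1, pandas 2.3.3, matplotlib 3.10.9) were tested on simulated data.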

Additional observations from a re-analysis of the deposited data

Results flagged for a closer look

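For 7 genes the level was at least 2-fold higher in the tenocyte-like cells of 1 library than of another while it was at least 2-fold lower in the other stromal cells, or the reverse. Each comparison has 1 library per condition, and the difference between the classes was not tested.

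Between 3 w and 16 w, Sfrp2 went from 64.6 to 164 CPM in the tenocyte-like cells (ratio 2.54) and from 24.4 to 10.2 CPM in the other stromal cells (ratio 0.419). Without 1 cell that held 73 of the 140 Sfrp2 UMIs at 16 w, the ratio in the tenocyte-like cells was 1.23 (0.934 to 1.59), which is no longer a 2-fold difference. Chst11, a chondroitin sulfotransferase, went from 19.3 to 9.36 CPM (ratio 0.486, on 8 UMIs at 16 w) and from 20.6 to 42.7 CPM (ratio 2.08).

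Between 3 d and 78 w, Igfbp3 went from 51.1 to 410 CPM in the tenocyte-like cells (ratio 8.03) and from 166 to 65.5 CPM in the other stromal cells (ratio 0.394). Spon2 went from 170 to 391 CPM (ratio 2.29) and from 206 to 80.3 CPM (ratio 0.389). Lower in the tenocyte-like cells and higher in the other stromal cells were Scrg1 (ratio 0.438 against 2.99), Enpp2, which encodes autotaxin (0.334 against 2.31), and Smoc2, a calcium-binding matrix protein (0.453 against 2.64). Their levels at 78 w were 65.5, 43.9 and 154 CPM in the tenocyte-like cells and 308, 195 and 541 CPM in the other stromal cells.

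The tenocyte-like cells are held low in Chad by the rule and the other stromal cells are not, and the Chad-high cells among the latter were 0 of 9460 at 3 d and 1965 of 7585 at 78 w. With the Chad-high cells left out, no gene of the 7 was beyond 2-fold in the other stromal cells. Their ratios there were then 1.22 for Scrg1, 1.27 for Enpp2, 1.87 for Smoc2, 0.549 for Igfbp3 and 0.545 for Spon2 between 3 d and 78 w, and 0.554 for Sfrp2 and 1.87 for Chst11 between 3 w and 16 w.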

How the results depend on the processing

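No paired analysis was possible because each condition has 1 library, and for the same reason no replicate could be left out. Of 188 values of shares and gene counts under an alternative, 43 moved beyond their interval or by more than 1.5 times and 145 did not. Of 4620 values of single genes, 471 moved, 3 turned direction and 4146 did not move. A limit of 2000 UMIs per cell, a mitochondrial limit of 10%, leaving out cells above 3 times the median UMIs, scaling by the median ratio, the mean of single cells, a stromal minimum of 1% and stromal cells without Tnmd, Kera and Coch moved no share or gene count they were applied to.

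The share of stromal cells depended on the marker minimum and on depth. With at least 3 marker UMIs it was 2.48% at 3 d, 7.42% at 3 w and 3.52% after injury, and with at least 8 it was 0.905%, 4.55%, 0.993%, 1.40% and 0.833% from 3 d to injured. Thinned to 3000 UMIs it was 0.282%, 0.951%, 0.517%, 0.895% and 1.13%, and among the stromal cells of the deposited counts 0.317%, 1.03%, 0.536%, 0.940% and 1.16%. The 3 w share was 5.34% with Chad limited to 1000 CPM, 7.09% without a Chad limit and 5.66% without cells carrying genes that stromal cells had to lack.

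With a minimum of 20 UMIs, 1098 genes were lower at 3 w than at 3 d, 332 higher at 16 w than at 3 w, 291 higher and 119 lower at 78 w than at 16 w, 1316 higher and 1179 lower at 78 w than at 3 d, 343 higher in the injured cells than at 3 w, and 401 higher and 920 lower than at 16 w. With the minimum set at the depth of the shallower group, 820 were higher at 3 w than at 3 d, 136 lower at 16 w than at 3 w, 38 higher at 78 w than at 16 w, 182 lower after injury than at 3 w, and 2 lower than in other stromal cells. Without mitochondrial and ribosomal protein genes in the totals, 651 were lower at 3 w and 605 lower at 78 w than at 3 d. Over cells without Coch, 61 were higher at 16 w than at 3 w and 105 lower after injury than at 16 w. With at least 8 marker UMIs, 83 and 87 were higher after injury than at 3 w and 16 w. The genes lower than in other stromal cells were 13 without the injured library and 15 without cells carrying genes that stromal cells had to lack.

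Between 16 w and 78 w, Ccl2 had a ratio of 2.65 over all tenocyte-like cells and 0.947 over those without Coch, and Hbegf 0.443 and 1.04. A single cell held 80.0% of the 16 w and another 52.3% of the 78 w Ccl2 UMIs. Rgs5 at 78 w against 3 d had a ratio of 0.0331, and 1.33 without cells carrying genes that stromal cells had to lack, which takes out the Rgs5 counts themselves, so that both counts of 0 were taken as 3 and the ratio is that of the totals. For Ccl2 and Hbegf the cause was not tested. The alternatives without Coch, without cells carrying those genes, without the injured library, with the depth-matched minimum, with stromal cells lacking the markers, with stromal cells fixed before thinning without a gene's leading cell and without Chad-high stromal cells were chosen after seeing the data. Depth limits the genes read at 16 w, 78 w and after injury, whose cells hold fewer UMIs than those of 3 w.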
